A study of Drosophila melanogaster with 2 samples.

Results

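The genes described here are 9 members of the tumour necrosis factor (TNF) and Jun N-terminal kinase (JNK) pathway of Drosophila melanogaster. They are the ligand gene egr, the receptor genes wgn and grnd, the adaptor genes Traf4 and Traf6, the kinase genes Tak1, hep and bsk, and puc, which encodes a phosphatase that acts on the JNK. They were taken by name from the 13945 protein-coding genes on the 6 chromosome arms. The list was drawn up with the strong peaks at wgn and puc already known, so those peaks are given as a description and no test was made of them. The data are peak lists from chromatin immunoprecipitation and sequencing (ChIP-seq) of CG15073, a zinc finger protein, in embryos. There is 1 group of 2 biological replicates, numbered 3 and 4, and no other genotype, treatment or age, so nothing below compares conditions. All embryos came from the same transgenic line, in which CG15073 carries enhanced green fluorescent protein (eGFP) at its C-terminal end; the promoter that drives the fusion is not given in the sources used here. Each collection pooled males and females from 0 to 24 h of development and was precipitated as whole embryos with an antibody against GFP, so the cells that gave a peak, and its time, cannot be told apart from these lists.

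In flies, the ligand Eiger binds the receptors Wengen and Grindelwald. Traf adaptors pass the signal to Tak1, a kinase that activates the JNK kinase Hemipterous, which in turn activates Basket, the fly JNK. Basket switches on AP-1 transcription factors, and one of their known target genes is puckered (puc), whose product turns Basket off again. In the embryo the JNK part of the pathway is best known for dorsal closure, when the epidermal sheets meet over the back.

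A summit, the position of highest signal in a peak, was assigned to a gene when it lay within 500 bp of an annotated start site, in the gene body or within 2 kb upstream. Peaks are ranked by the signal the authors deposited for them, with rank 1 the strongest. The list that passed the authors' test of reproducibility (IDR, irreproducible discovery rate) holds 1445 peaks with signals from 66.5 to 9689 and a median of 96.5. These are the strongest 1445 of the 23030 peaks in a relaxed list made on both replicates pooled. Each replicate also has its own relaxed list of 30000 peaks. The pooled list and the replicate lists all mix peaks with background. The signal has no stated unit and read depth is unknown, so signals are compared only within a list, and peaks across lists by rank.

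Among the 9 members, the strongest CG15073 summits lay at a receptor gene and at the inhibitor gene. A summit of rank 27 stood upstream of wgn and one of rank 37 in an intron of puc, both among the strongest 50 of the IDR list. The other 7 members had no IDR peak. Within the start-site window of 500 bp, 0 of 9 members had an IDR summit, against a background of 6.75% of protein-coding genes. In the gene or upstream, 2 of 9 members had one, wgn and puc, against a background of 11.3%. An IDR summit of the strongest 50 was assigned to 0.473% of protein-coding genes, and to wgn and puc among the members. Since the members were chosen with these peaks known, nothing is read from these shares.

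**Figure D1:**
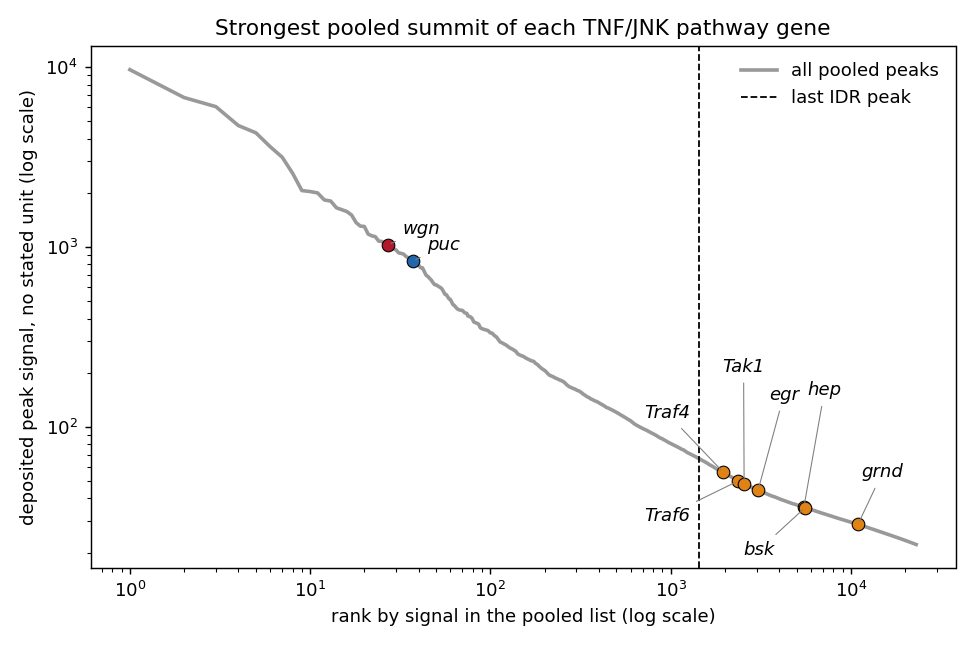
Rank (x axis, log scale) and deposited signal (y axis, log scale, no stated unit) of the pooled peaks, with the strongest summit assigned to each of the 9 members marked on the grey curve. The points of wgn (rank 27) and puc (rank 37) lie far to the left of the dashed line at the last IDR peak (rank 1445), and the 7 other members lie to the right of it, from Traf4 (rank 1963) to grnd (rank 10948).

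The DNA under these summits is shown because the words marked at the 2 strong summits differ. The 2 weaker summits were picked because they share words with them. Each line gives 201 bp centred on the summit, read from the plus strand of the Release 6 assembly, which is dm6, with the matches named below in capitals. The windows are chrX:18635402-18635602 for wgn, chr3R:8113372-8113572 for puc, chr2L:4371413-4371613 for Traf4 and chrX:20525038-20525238 for Tak1.
wgn, rank 27: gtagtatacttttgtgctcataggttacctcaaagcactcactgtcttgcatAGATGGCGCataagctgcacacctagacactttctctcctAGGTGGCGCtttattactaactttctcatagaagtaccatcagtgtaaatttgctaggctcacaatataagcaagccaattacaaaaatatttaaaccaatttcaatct
puc, rank 37: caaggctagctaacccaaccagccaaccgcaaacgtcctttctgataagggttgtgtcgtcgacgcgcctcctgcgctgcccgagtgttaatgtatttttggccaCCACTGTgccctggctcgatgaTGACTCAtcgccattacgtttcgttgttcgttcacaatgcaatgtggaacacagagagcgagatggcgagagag
Traf4, rank 1963: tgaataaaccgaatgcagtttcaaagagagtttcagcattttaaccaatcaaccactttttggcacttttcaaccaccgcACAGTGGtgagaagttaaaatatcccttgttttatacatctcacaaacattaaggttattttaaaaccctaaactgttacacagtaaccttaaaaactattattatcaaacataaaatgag
Tak1, rank 2557: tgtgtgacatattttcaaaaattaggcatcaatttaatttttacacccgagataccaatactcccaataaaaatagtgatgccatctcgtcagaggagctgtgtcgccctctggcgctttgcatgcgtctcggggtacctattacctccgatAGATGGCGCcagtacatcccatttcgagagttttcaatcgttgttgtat

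In the wgn window the capitals mark AGATGGCGC and AGGTGGCGC, forms of the core bound by the insulator protein CTCF, centred 44 bp and 4 bp to the left of the summit. In the puc window they mark CCACTGT, which reads ACAGTGG on the minus strand and is centred 8 bp to the right of the summit, and TGACTCA, a match to the AP-1 site TGANTCA, centred 30 bp to the right. The Traf4 window holds ACAGTGG on the plus strand, 17 bp to the left of its summit. The Tak1 window holds AGATGGCGC, 56 bp to the right. Thus the marked words differ between the wgn and puc windows. The Traf4 and Tak1 summits did not reach the IDR list, and since their windows were picked for a shared word, nothing is read from the sharing. ACAGTGG and the CTCF forms were settled on after the data were seen. The looser CTCF form and the short sites GAGAG and GCCAT, all given below, were in both the wgn and the puc window. The Traf6 start-site window, also examined, held none of the marked words.

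How common these words are was counted on both strands in windows of the same length. ACAGTGG was found after the data were seen, as the most frequent 7-letter word in the 60 strongest IDR windows once wgn and puc were set aside (29 of 60, followed by ACAGTCG in 18). With wgn and puc counted back in, it stood in 50% of the 60 strongest windows. It was in 15.5% of all 1445 IDR windows, in 2.25% of the windows at start sites of protein-coding transcripts and in 3.18% of windows 1000 bp to either side of the IDR summits. Since the word was picked on the strongest peaks, its high share among them is not evidence of its own. TGANTCA stood in 4.57% of IDR windows, 13.3% of the 60 strongest, 3.74% of coding start windows and 4.53% of flanking windows. The puc window was 1 of 12 IDR windows with both ACAGTGG and TGANTCA.

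For CTCF, 4 forms of the core, settled on after the data were seen, were counted, AGAGGGCGC, AGATGGCGC, AGGGGGCGC and AGGTGGCGC. At least 1 of them stood in 2.77% of IDR windows, in 5% of the 60 strongest, in 0.536% of coding start windows and in 0.242% of flanking windows. The wgn window was 1 of 8 IDR windows that held 2 or more. The looser AGNNGGCGC, which takes any letters at 2 places, was in 3.6% of IDR windows and 1.91% of coding start windows. Under that looser form puc also had a match, AGGAGGCGC on the minus strand, 32 bp to the left of the summit. A match to letters is a description and does not show that CTCF or AP-1 bound there.

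The remaining matches were to short sites that were at least as common in coding start windows as in all IDR windows. The wgn window held GAGAG, the core of GAGA factor sites, and GCCAT, the core of sites for the Polycomb recruiter Pho, whose match lies inside AGATGGCGC. The puc window of rank 37 held the sites GAGAG and GCCAT. It also held a promoter element, CANCNCTNA. GAGAG was in 23.5% of IDR windows and 24.9% of coding start windows, GCCAT in 29.7% and 30.8%, and CANCNCTNA in 8.3% and 9.7%. In the 60 strongest IDR windows the shares were 26.7% for GAGAG, 46.7% for GCCAT and 10% for CANCNCTNA. GCCAT was thus more frequent in the strongest windows than in all IDR windows, a difference that was not tested. The window of the weaker puc summit and that of the Traf6 start-site summit held only GCCAT and the E-box CANNTG. The E-box was in 59.4% of IDR windows, 70% of the 60 strongest and 63.9% of coding start windows. The Tak1 window also held CGATA, the BEAF-32 site, which was in 23% of IDR windows, 25% of the 60 strongest and 37.2% of coding start windows. None of the windows of the 6 member summits examined held the DREF site TATCGATA, the homeodomain core TAATTA, the promoter element GGTCACACT or the Zelda site CAGGTAG. Guanine and cytosine made up 53.2% of the puc window of rank 37, 37.8% of the wgn window, 43.3% at Tak1 and 31.8% at Traf4, beside a median of 35.3% over the IDR windows.

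The ligand gene egr (FBgn0033483, 2R:10078366-10084210, plus strand) had no IDR peak, and its nearest IDR summit lay 21841 bp from its start site. Its strongest pooled summit stood 502 bp upstream of that start site, 2 bp too far for the start-site rule, with a signal of 44.5 at rank 3057. The matching replicate summits were 493 bp upstream in replicate 3 (signal 27.2, rank 3535), which is inside the window, and 538 bp upstream in replicate 4 (signal 19.8, rank 5398), which is outside it. The same upstream site was therefore found in both replicates at middling rank but counted as a start-site summit in replicate 3 alone. A pooled summit nearer the start, 288 bp upstream, had a signal of 28.1 at rank 11679, with a partner of rank 7745 in replicate 3 and none in replicate 4. In an egr intron a pooled summit had a signal of 33.5 at rank 6724, within 500 bp of the start of the small RNA gene snoRNA:Or-CD13. It too had partners in both replicates, at rank 10228 in replicate 3 and rank 3922 in replicate 4. In replicate 4 that partner, with a signal of 21.4, was the strongest egr summit.

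The receptor gene wgn (FBgn0030941, X:18624042-18634908, minus strand, 10867 bp) held the strongest member summit. Its IDR peak spans X:18635310-18635722 with the summit at X:18635502. The signal was 1027 at rank 27 in the IDR and pooled lists, 653 at rank 31 in replicate 3 and 386 at rank 24 in replicate 4. The replicate 3 summit was at the same base and the replicate 4 summit 9 bp away, so both replicates placed the peak at the same site and about the same rank. The summit lies 594 bp upstream of the only wgn start site and in no gene. It is also 140 bp beyond the 3′ end of Rip11, which encodes a Rab11-binding protein and is transcribed from the same strand (X:18635642-18647648), and the peak reaches 81 bp into Rip11. Its −log10 q-value of 3.24 is the highest in the IDR list and is shared by 869 of the 1445 peaks.

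The wgn site has a side summit. In replicate 3 a summit 211 bp from the main one, inside the end of Rip11, had a signal of 101 at rank 288, and the pooled list had its counterpart 204 bp from the main summit, with a signal of 43.6 at rank 3214. Replicate 4 had none there. Such side summits were common at strong peaks: of the strongest 50 IDR peaks, 20 had a replicate 3 summit 150 to 250 bp from the main one and 8 had a replicate 4 summit there. At the wgn start site itself there was little signal. The only pooled summit within 500 bp lay 415 bp into the gene, in the 5′ untranslated region, with a signal of 22.7 at rank 21741, while replicate 4 gave 12.7 at rank 25320 and replicate 3 had none. A position between 500 and 1000 bp from a start site is frequent among strong peaks: 28 of the strongest 50 IDR summits were more than 500 bp from any start site, and 17 of those lay within 1000 bp.

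The other receptor gene, grnd (FBgn0032682, 2L:18485417-18488021, plus strand), had the weakest maximum of the 9 members. Its strongest pooled summit, 587 bp upstream, had a signal of 28.7 at rank 10948, close to the pooled median of 28.3, and lay within 500 bp of a start of the neighbouring gene CG10283. Replicate 3 had a summit 750 bp upstream, 163 bp from the pooled one, with a signal of 26.4 at rank 3799. A weaker replicate 3 summit lay only 42 bp from the pooled one, with a signal of 16.3 at rank 13688. Another stood 134 bp into the grnd 5′ untranslated region, with a signal of 17.0 at rank 12215. Replicate 4 had no summit assigned to grnd. The summit found in both the pooled and the replicate 4 list was 54 bp past the 3′ end of grnd, inside kon, with a pooled signal of 23.8 at rank 19030 and a replicate 4 signal of 15.4 at rank 14426. So, of the receptor genes, wgn had a peak among the strongest of the genome and grnd had no summit that recurred in both replicates.

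**Figure D2:**
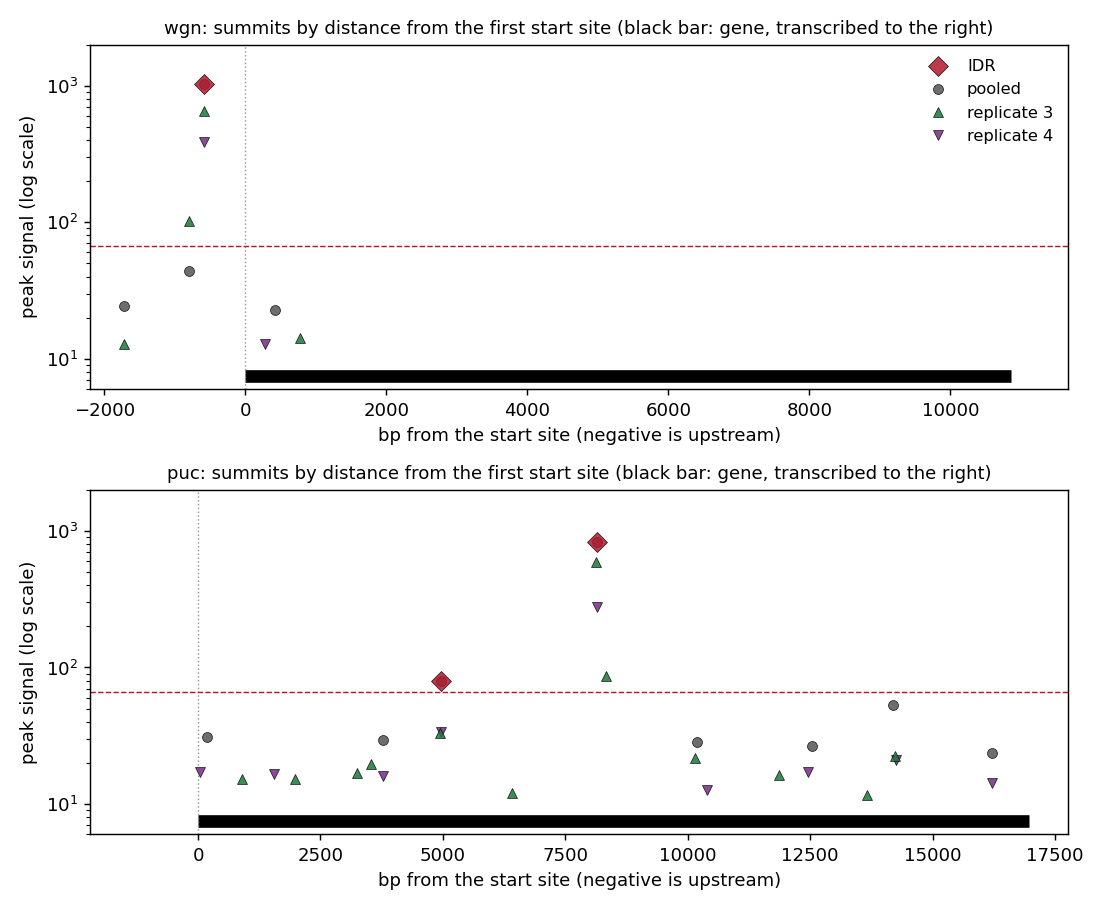
Summits assigned to wgn (upper panel) and puc (lower panel) in the 4 lists, by distance from the first start site of the gene (x axis, bp, negative is upstream) and deposited signal (y axis, log scale); the black bar is the gene, transcribed to the right, and the dashed line is the lowest IDR signal, 66.5, which applies to the IDR and pooled lists. Each pooled twin of an IDR summit is hidden under its diamond. The strong wgn summit lies upstream of the gene and the strong puc summit inside it, and in both panels the replicate 3 and replicate 4 summits stand at the same place as the IDR summit.

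The adaptor gene Traf4 (FBgn0026319, 2L:4361925-4380716, plus strand) had the strongest start-site summit of any member and still fell short of the IDR list. It stood at 2L:4371513, 477 bp upstream of the inner of the 2 Traf4 start sites and in an intron of the longer transcript, with a pooled signal of 55.8 at rank 1963. Its partners had a signal of 26.9 at rank 3609 in replicate 3 and 15.8 at rank 13219 in replicate 4. The replicates thus ranked it very differently, and replicate 4 had its own strongest Traf4 summit, with a signal of 24.1 at rank 2493, 758 bp upstream of the outer start site. The start of the RNA gene lncRNA:CR45363 lies 210 bp from the summit, so it could be assigned to either gene. This is the window shown above that holds ACAGTGG.

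The adaptor gene Traf6 (FBgn0265464, X:8154599-8157386, minus strand) had 1 pooled summit, 132 bp upstream of its start site. The signal was 50.1 at rank 2371 in the pooled list, 29.8 at rank 2787 in replicate 3 and 23.0 at rank 2918 in replicate 4. It was the member start-site summit whose ranks differed least between the lists, and it was also the 1 member start-site summit kept in both replicates with a window of 250 bp. The start of GIIIspla2, a phospholipase gene, lies 110 bp from the same summit, so the position does not tell which of the genes it belongs to.

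Among the kinase genes, Tak1 (FBgn0026323, X:20515908-20524928, minus strand) had a start-site summit 210 bp upstream, with a pooled signal of 48.3 at rank 2557. Replicate 3 gave 21.9 at rank 6255 and replicate 4 gave 26.7 at rank 1781, the best replicate 4 rank of a member start-site summit. Inside the gene, an intron summit had a pooled signal of 38.2 at rank 4495 with a partner of rank 7269 in replicate 3 and none in replicate 4. The upstream summit was therefore found in both replicates, while the strongest intron summit was not. A weaker intron summit, of pooled rank 10046, did have partners in both, at rank 15551 in replicate 3 and rank 14765 in replicate 4.

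The JNK kinase gene hep (FBgn0010303, X:13079205-13090434, minus strand) was weak at its start. The start-site summit, 265 bp upstream, had a pooled signal of 22.9 at rank 21309, with partners of rank 11491 in replicate 3 and rank 23080 in replicate 4, and lay within 500 bp of the start of lic, which encodes a p38 pathway kinase. The strongest hep summit was in an intron, with a pooled signal of 35.8 at rank 5485, a replicate 3 signal of 19.7 at rank 8353 and a replicate 4 signal of 16.6 at rank 11130. A stronger summit lay just past the gene: 232 bp beyond the 3′ end of hep, inside rsh, with a pooled signal of 49.8 at rank 2388 and a replicate 4 signal of 35.6 at rank 892. Replicate 3 had no summit there. The site is outside the assignment rule and is not counted for hep.

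The JNK gene bsk (FBgn0000229, 2L:10247502-10250501, minus strand) had 3 annotated start sites and no start-site summit in the pooled list. Its 1 pooled summit was in a coding exon 1612 bp from the nearest bsk start site, with a signal of 35.6 at rank 5572. Replicate 3 gave 20.3 at rank 7632 at the same base and replicate 4 gave 15.0 at rank 15713. The replicate 4 signal is close to that list's median of 15.2, and the replicate 3 signal is above that list's median of 15.7. No IDR summit lay closer than 48595 bp to a bsk start site, the largest such distance of the 9 members.

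The inhibitor and target gene puc (FBgn0243512, 3R:8105332-8122294, plus strand, 16963 bp) was the member with more than 1 IDR peak. Its strong peak spans 3R:8113244-8113660 with the summit at 3R:8113472, in an intron and 6984 bp from the nearer of the 2 puc start sites. The signal was 833 at rank 37 in the IDR and pooled lists, 594 at rank 36 in replicate 3 and 278 at rank 41 in replicate 4, and both replicate summits were 6 bp from the IDR one. As at wgn, both replicates gave the site nearly the same rank. The summit also lies in an exon of lncRNA:CR44331, an RNA gene on the opposite strand inside puc (3R:8112699-8114003), 531 bp from that gene's start. Replicate 3 had a side summit 199 bp away with a signal of 87.1 at rank 381, and replicate 4 had none.

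The weaker puc IDR peak spans 3R:8110095-8110504 with its summit at 3R:8110300, in an intron 3812 bp from the nearer start site. Its signal was 79.3 at rank 1042 in the pooled list, 33.2 at rank 2206 in replicate 3 and 33.7 at rank 995 in replicate 4, with a −log10 q-value of 2.62. It is the member summit just inside the IDR limit of 66.5, and the Traf4 summit at 55.8 (rank 1963) is the nearest one outside it. A further puc intron summit at 3R:8119532 missed the limit as well, with a pooled signal of 53.4 at rank 2119, 22.5 at rank 5775 in replicate 3 and 21.1 at rank 4166 in replicate 4. In all, 8 pooled summits, 12 replicate 3 summits and 9 replicate 4 summits were assigned to puc. At the 2 puc start sites the signal was weak. The pooled summit, 189 bp into the gene from the outer start site, had a signal of 30.8 at rank 8687. Its partner in replicate 4, 50 bp from that start site, had rank 10013, and replicate 3 had none there. The start-site summit of replicate 3 lay 256 bp upstream of the inner start site at rank 15981, and replicate 4 had another 404 bp beyond that inner start site at rank 10935, so no puc start-site summit recurred in both replicates. Having at least 2 IDR summits was a feature of 1.81% of protein-coding genes of all lengths. The share among genes as long as puc is not given here. At least 1 IDR summit was assigned to 26% of genes of 10 kb or more and to 7.93% of those under 5 kb.

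**Figure D3:**
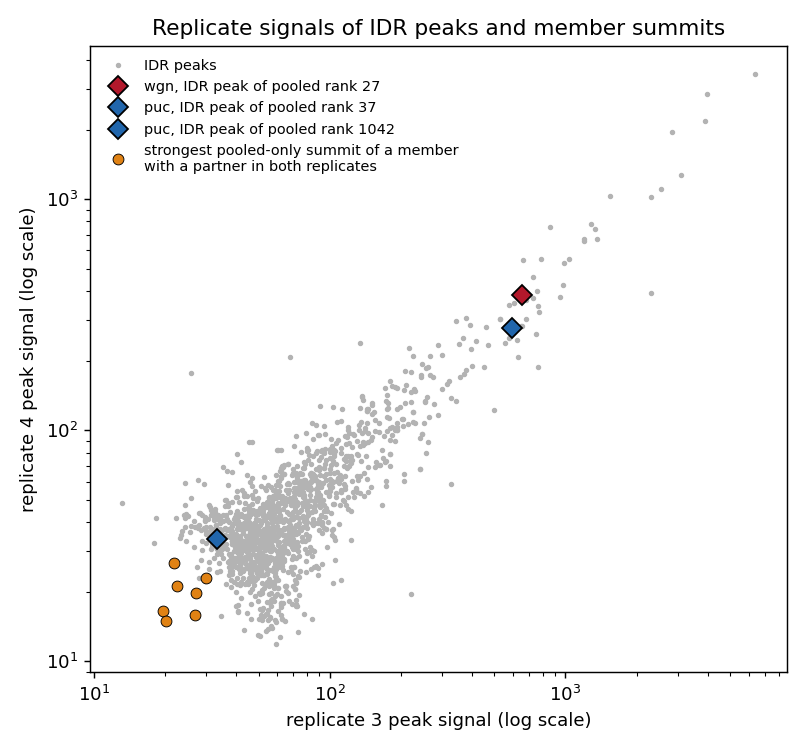
Deposited signal in replicate 3 (x axis, log scale) and replicate 4 (y axis, log scale) of the IDR peaks with a partner within 200 bp in both replicate lists (grey), with the 3 IDR peaks of wgn and puc as diamonds and, as orange points, the strongest pooled-only summit with partners in both replicates for each of the 7 members that have one. The wgn peak (653 and 386) and the strong puc peak (594 and 278) lie among the strong peaks of both replicates, the weaker puc peak (33.2 and 33.7) at the low end of the grey cloud, and the orange points below and to the left of most of it.

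The peaks most like those of wgn and puc were sought by their log2 signals in both replicates, as the distance in the plane of the 2 values. This choice was made after the values were seen, since no member had an IDR start-site peak to start from. Nearest to wgn were the peaks by car (distance 0.10, rank 28), RhoGAP68F (0.16, rank 24) and CG43448 (0.16, rank 30). Nearest to the strong puc peak were those by CG44000 (0.10, rank 40), Sox102F (0.13, rank 33) and crp (0.15, rank 32). Peaks of like rank are close by construction, and nothing about shared function or control follows from it. The agreement between replicates at wgn and puc was usual for strong peaks: 45 of the IDR peaks were among the strongest 50 of both replicates, whereas 909 of the 1445 were among the strongest 1445 of both. IDR peaks near the same replicate summit share it as partner, so some replicate summits count more than once. At Cortactin, for example, a side peak of rank 217 took the same partners as the main peak of rank 36.

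In the relaxed lists summits were found at most members. All 9 had at least 1 pooled summit in the gene or upstream, against a background of 61% of protein-coding genes. Of the 9, 7 had a pooled start-site summit, all but grnd and bsk, against 33.6%. The best such rank ran from 1963 to 21741 in those 7 members with a median of 8687, and from 1 to 23027 in the 4684 protein-coding genes that had one, with a median of 5779. In both replicate lists a start-site summit was found for 5 of 9 members, Traf4, Traf6, Tak1, hep and puc, against 19.7%. At puc these were different summits, more than the partner distance of 200 bp apart. The pooled ranks of the members were thus spread over the list, and with relaxed lists that mix peaks with background, summits of such rank are not calls of binding.

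**Figure D4:**
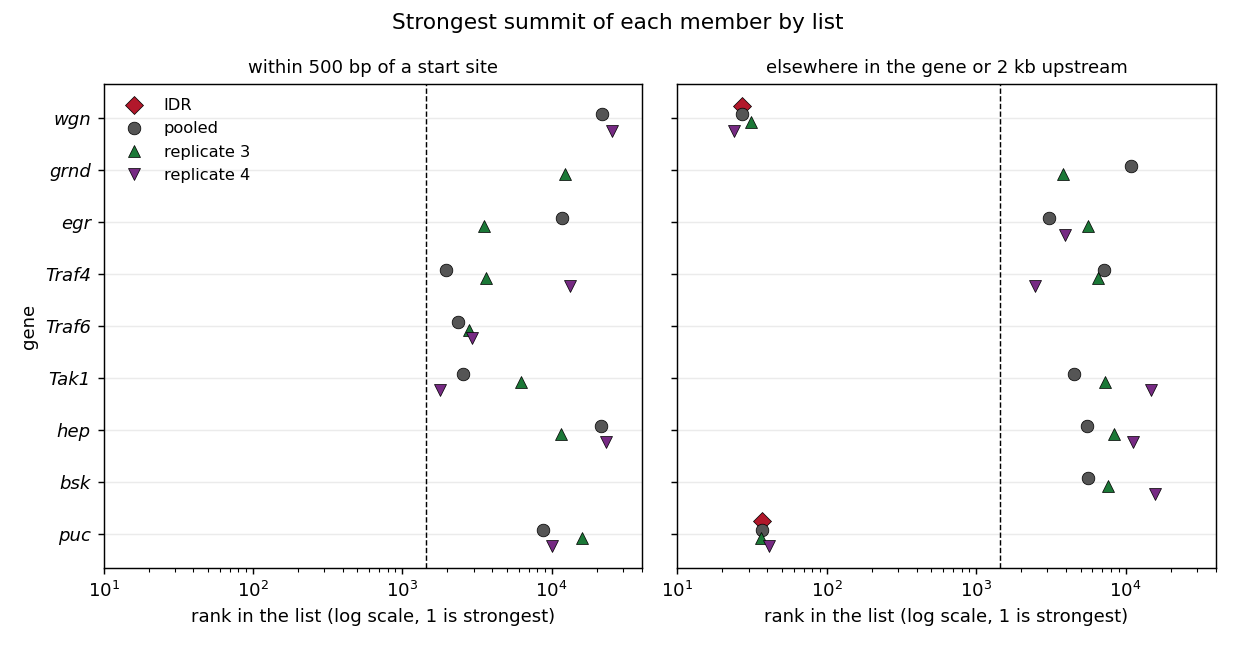
Rank (x axis, log scale, 1 is strongest) of the strongest summit of each member in each of the 4 lists, within 500 bp of a start site (left panel) and elsewhere in the gene or 2 kb upstream (right panel); the dashed line is the IDR limit of 1445, which applies to the pooled rank. No point lies left of the line in the left panel, and in the right panel wgn and puc do, with ranks from 24 to 41 in all 4 lists.

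Long genes offer more room for a summit in the gene body, and wgn and puc are both 10 kb or more. The puc IDR summits were in the gene. The wgn summit lay outside it, in the upstream region that every gene was given whatever its length. An IDR summit was assigned to 26% of the 1977 protein-coding genes of 10 kb or more and to 2 of the 4 members of that length, the others being Traf4 and hep. Among genes of 5 to 10 kb the background was 15% (226 of 1507) and 0 of the 2 members, egr and Tak1, had one. Under 5 kb it was 7.93% (830 of 10461) and 0 of the 3 members, grnd, Traf6 and bsk, had one. Whether length played a part was not tested.

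The pathway beyond the 9 members was represented by 51 further genes, all of which were found in the annotation, 2 of them under newer names (Ask1 for Pk92B and Btk for Btk29A). Of these, 10 had an IDR summit inside the start-site window (19.6%, against the background of 6.75%) and 16 had one in the gene or upstream (31.4%, against 11.3%). The genes of 10 kb or more held 11 of the 16 (11 of 22, or 50%, against 26% of all genes of that length). Among those of 5 to 10 kb it was 1 of 6 (16.7%, against 15%), and under 5 kb 4 of 23 (17.4%, against 7.93%). The list was drawn up with earlier results on these data known, and these shares are a description.

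By role, 7 of the 10 start-site peaks were at genes of GTPases, Src or Tec kinases, upstream kinases and adaptors. The GTPase, Src and Tec kinase role holds 9 of the 51 genes, and the upstream kinase and adaptor role 12. For every role the background is 6.75% for a start-site peak and 11.3% for a summit in the gene or upstream. Each role holds few genes, and differences between roles were not tested. Of 9 GTPase and Src or Tec kinase genes, 4 had a start-site peak (44.4%). The GTPase gene Rac2 had the strongest, 213 bp upstream, with a signal of 4318 at rank 5 (rank 4 in replicate 3 and rank 5 in replicate 4). Mtl, also a GTPase gene, had a signal of 309 at rank 110, shared with the start of CG5611, and the Tec-family kinase gene Btk had 234 at rank 167. Src64B, a Src kinase gene, had 103 at rank 640. Each of these was among the strongest 800 of both replicate lists.

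Of 12 upstream kinase and adaptor genes, 3 had a start-site peak (25%) and 6 a summit anywhere in the gene or upstream (50%). Mkk4, which encodes the other JNK kinase beside hep, had a start-site signal of 285 at rank 123 (rank 153 in replicate 3 and rank 102 in replicate 4), within 500 bp of the start of SLIRP2 as well. POSH, which encodes a scaffold protein of JNK signalling, had 165 at rank 281, shared with the start of Ns2. Ask1, a kinase that acts upstream of JNK kinases, had 152 at rank 330 in a coding exon near a start site and a stronger summit elsewhere, in its 5′ untranslated region, with a signal of 527 at rank 58 (rank 55 in replicate 3 and rank 73 in replicate 4). Mekk1, a kinase of the same level, had an intron summit of 122 at rank 489, and msn, a kinase further upstream, had 3 summits, the strongest in an intron with 107 at rank 611. The kinase gene wnd, named after its values were seen, had 66.6 at rank 1442, at the edge of the list. Its rank of 3911 in replicate 4 was too low to count when the strongest peaks of that replicate stood in for the IDR list.

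Transcription factor genes held 2 start-site peaks among 6 (33.3%), and 3 of the 6 had a summit in the gene or upstream (50%). Atf3, which encodes a bZIP factor, had 207 at rank 200. The gene kay, the fly Fos gene and a part of AP-1, had 97.8 at rank 701, with rank 556 in replicate 3 and rank 3259 in replicate 4. That replicate 4 rank was too low to count when the strongest peaks of replicate 4 stood in for the IDR list. The repressor gene aop had a summit upstream of the gene with 102 at rank 653. Of 7 ubiquitin factor and inhibitor genes, 0 had a start-site peak and 2 had a summit in the gene or upstream (28.6%). Among these, raw, whose loss raises JNK signalling in the embryo, had 94.1 at rank 755 in an intron (rank 4618 in replicate 4). The ubiquitin ligase gene Nedd4 had 67.9 at rank 1392. Its rank of 4672 in replicate 3 was too low to count when the strongest peaks of that replicate stood in for the IDR list. Of 17 target genes, 1 had a peak (5.88%, beside backgrounds of 6.75% and 11.3%). It was the cell death gene hid, with 113 at rank 558, 293 bp upstream of a start site. Thus puc, with ranks of 37 and 1042, and hid were the target genes with an IDR peak among those examined.

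**Figure D5:**
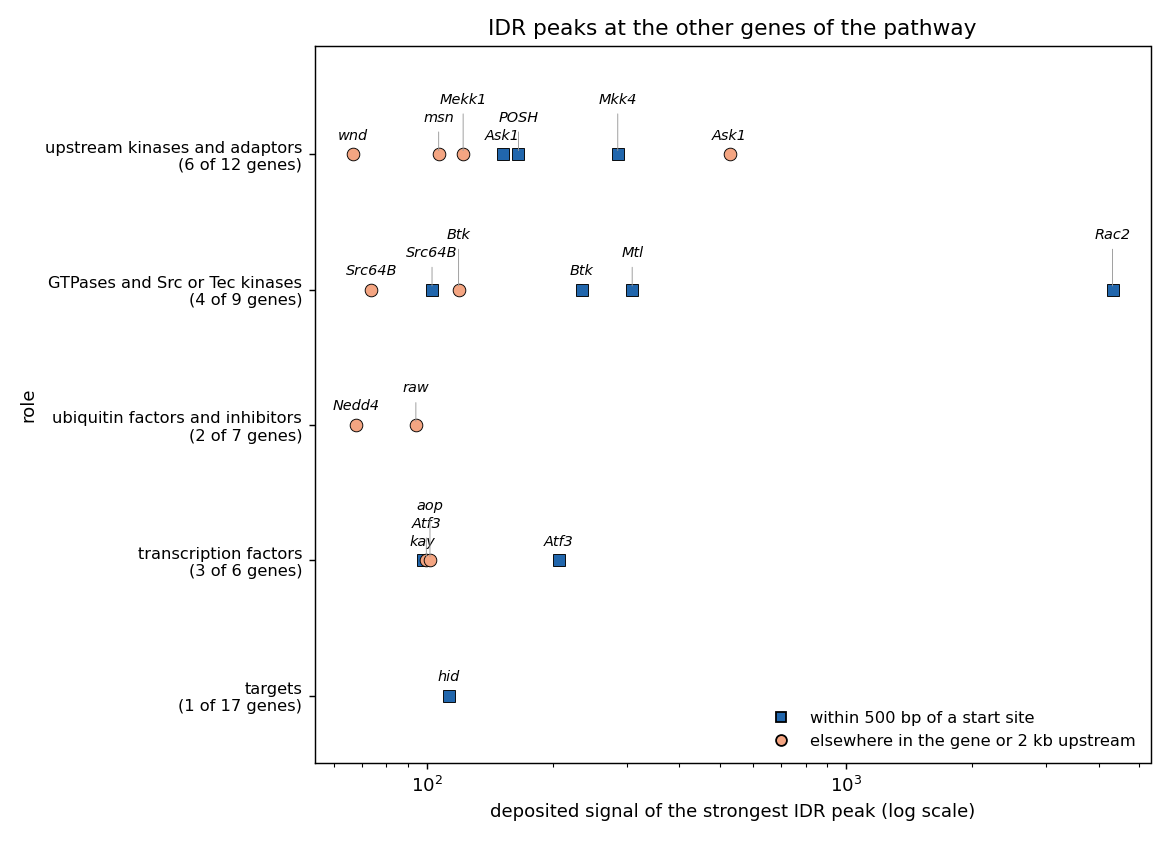
Deposited signal (x axis, log scale) of the strongest IDR peak of each other pathway gene, by role (y axis, with the number of genes that have an IDR summit in the gene or upstream), within 500 bp of a start site (blue squares) and elsewhere (orange circles). Rac2 (4318) stands far to the right of the other genes, Ask1 (527) follows, and 1 of 17 target genes, hid (113), has a peak.

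Both strong member peaks were found where the start-site rule does not look. The wgn summit missed the window of 500 bp by its distance of 594 bp, and the puc summit was deep in the gene. With a window of 1000 bp, or when any part of the peak was allowed to touch the window, 1 member, wgn, had an IDR start-site peak. The share of all protein-coding genes at these settings is not given here, so nothing is read from that count. The distances from a member's start site to the nearest IDR summit were 594 bp at wgn and 3812 bp at puc, and ran from 7786 bp at grnd to 48595 bp at bsk in the other members.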

How the data were processed

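Embryo chromatin from 2 biological replicates, sheared to 200 to 800 bp per the labels, gave the peak lists, all on dm6. Per the texts deposited with them, the authors made a relaxed list for each replicate and for both pooled, each with a further input that was not analysed here, and derived the IDR list from these. For the aligner, peak caller and IDR threshold, the choice is not given in the sources used here. Each deposited list gives a signal per peak, whose scale is not stated, and a −log10 q-value; both are the authors' own values and were used only to describe and rank peaks within a list. Lists on dm3 were not used, since no annotation of that build was used here.

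Genes came from the Ensembl release 115 annotation and sequence from the Release 6 assembly. Summits within 200 bp counted as partners between lists, and positions are 1-based. Motifs were matched on both strands within 100 bp of a summit. Computation used Python 3.11.15, numpy 2.4.6 and pandas 2.3.3, and assignment and motif matching were tested on simulated data. The members, the 51 other pathway genes and the motif list were chosen with earlier results of these data known. The text names all 9 members, genes with a start site within 500 bp of a member summit, every other pathway gene with an IDR start-site peak, 5 others with the strongest IDR summit elsewhere, and genes whose peaks were most alike. With 1 group, no test between groups was made. The labels call the replicates biological but do not say how the embryos were collected.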

Additional observations from a re-analysis of the deposited data

How the results depend on the processing

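The count of members with an IDR start-site peak was 0, and became 1 (wgn) with a start-site window of 1000 bp and 1 with any part of the peak allowed; it stayed 0 with 250 bp, with the strongest 722 IDR peaks and with protein-coding start sites. Members with an IDR summit in the gene or upstream numbered 2, and 1 (puc) when no upstream region beyond 500 bp was allowed. Members with a start-site summit in both replicate lists numbered 5, but 3 (Traf4, Traf6 and Tak1) when peaks had to be above each list's median signal, 1 (Traf6) with a window of 250 bp and 7 with 1000 bp. Shares of all protein-coding genes are not given at the alternative settings, so these member counts show only how far the counts move. When each replicate list stood in for the IDR list, leaving out the other replicate, the 2 counts over IDR peaks ran from 0 to 0 and from 2 to 2, and the counts of other pathway genes from 10 to 10 and from 17 to 17. The genes were not all the same: without replicate 3, kay lost its start-site peak and ben gained one, and for any summit wnd and kay were lost and ben, Timp and dpp came in; without replicate 4, Nedd4 was lost and Tab2 and Cka came in. Over the remaining alternatives, other pathway genes with a start-site peak ran from 7 to 10 and those with any summit from 13 to 20, within 1.5 times the main counts of 10 and 16, and replicate ranks at wgn and puc did not change with partner distances of 50 and 500 bp. No paired analysis was possible because there is 1 group. Read depth is unknown, so no limit from depth can be given for the weak member summits.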
